A study of Komagataella pastoris with 4 samples.

Results

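The ammonia export and acetate transporter family of the methylotrophic yeast *Pichia pastoris* was followed in cells lacking an intact *MXR1* gene. Its 5 genes were taken by identifier, as the rows of the count table whose protein description names ammonia export. They were 5 of 5427 rows, and a search of that description found these 5 rows and no others. By UniRef name 4 of the 5 are acetate transporters, and the remaining one, ACIB2EUKG770042, is uncharacterised. That row and ACIB2EUKG768246 are further described as exporting ammonia as a starvation signal, and they were also the only 2 rows of the table with the KEGG orthology entry K07034. All 5 carry a membrane term among their gene ontology annotations. By locus tag 4 lie on chromosome 1 and 1, ACIB2EUKG770042, on chromosome 2. ACIB2EUKG768521 and ACIB2EUKG768522 have consecutive locus tags on chromosome 1.

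Acetate enters and leaves yeast cells partly through small membrane proteins of the AceTr family. In *Saccharomyces cerevisiae* the best known is Ady2, which carries acetate and is needed for normal sporulation, and its relatives Ato2 and Ato3 have been implicated in the release of ammonia by colonies that run short of nutrients. Acetate is also the product of the aldehyde dehydrogenases that act on acetaldehyde during growth on ethanol. The descriptions of the *P. pastoris* members above are annotations by similarity, and which substrate each one carries was not measured.

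The libraries came from Dmxr1, which is GS115 with the coding region of *MXR1* disrupted by a zeocin resistance cassette, and from its parent GS115, with 2 libraries each. Both strains need histidine, and GS115 carries an intact *MXR1* and no resistance marker. The gene encodes Mxr1p, a zinc finger transcription factor that acts on genes of methanol, ethanol, acetate and amino acid use. The question was how expression on ethanol differs without Mxr1p. Cultures spent 14 h in a minimal medium that held ethanol as the carbon source and ammonium sulphate as nitrogen source. Dmxr1 grows more slowly on ethanol, and differences due to growth and due to the missing factor cannot be told apart.

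The libraries held between 24140235 and 29402357 counts. The *MXR1* row itself (ACIB2EUKG772516) had 206 and 258 CPM (counts scaled to the TMM-adjusted library size) in Dmxr1 and 287 and 405 CPM in GS115 (log2 fold change -0.58, adjusted p = 0.0787). The row sums reads along the gene, with any part that the cassette left in place, so it does not check the strain labels. Where along the gene these reads lie was not tested. Calls required an adjusted p of 0.05 or less in edgeR's quasi-likelihood test together with a log2 fold change of 1 or more in size. Over all 5425 genes tested, 177 were called lower and 29 higher. These counts changed when a library was left out, which sets 1 library against 2 and also changes the estimate of error. They were 94 and 49 without GS115 replicate 1, 290 and 44 without GS115 replicate 2, 111 and 23 without Dmxr1 replicate 1, and 273 and 56 without Dmxr1 replicate 2.

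The family split in Dmxr1. Of its 5 genes, all of which passed the filter on low counts, 2 were downregulated, 2 were upregulated and 1 did not reach the fold threshold. ACIB2EUKG768522 was 11.5-fold lower and ACIB2EUKG770042 was 3.05-fold lower, whereas ACIB2EUKG768246 was 2.45-fold higher and ACIB2EUKG768479 was 2.39-fold higher. The 4 calls compare with a background of 3.8% of all genes called in either direction, 3.26% lower and 0.535% higher. At the adjusted p alone 5 of 5 members passed, 3 lower and 2 higher, against 15.5% of all genes (10.5% lower and 5.07% higher). The Dmxr1 and GS115 libraries did not overlap for 5 of 5 members, which was also the case for 62.4% of all genes. The median size of the log2 fold change was 1.29 among the members and 0.27 among all genes. With sign, the median was -0.58 among the members, which is the value of ACIB2EUKG768521, and 0.0041 among all genes. The same 2 lower and 2 higher members were called when each library was left out in turn. The study drew attention to an ammonia exporter in these very libraries, as it did to *MEP2* and *ALD6-1*, which are described further on, so these counts do not serve as separate evidence of a direction.

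**Figure D1:**
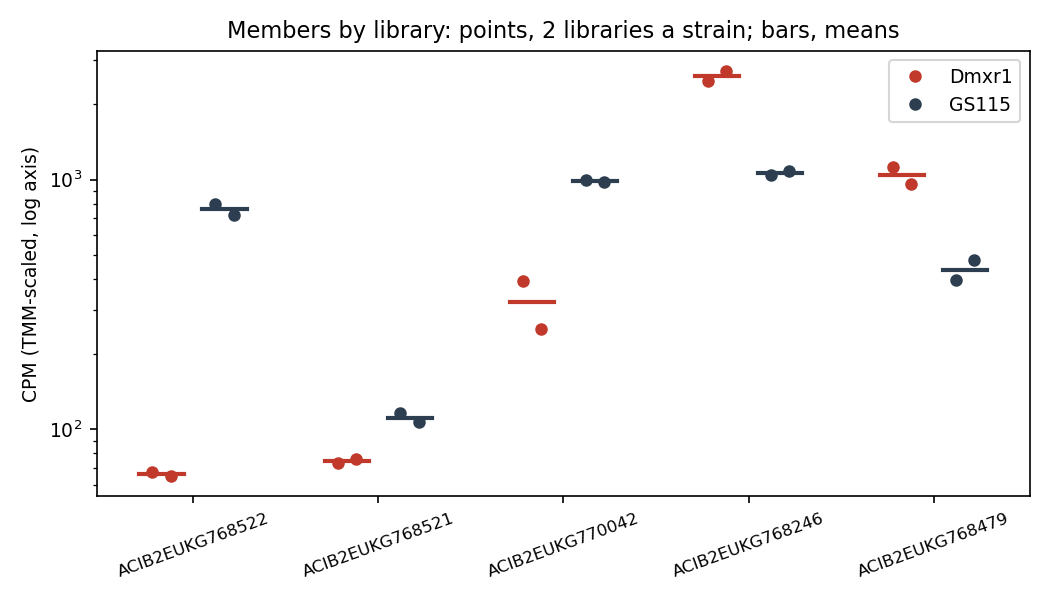
Level of each family member in each library, in CPM scaled to TMM-adjusted library sizes on a log axis. Points are the 2 libraries of Dmxr1 (red, left) and of GS115 (dark blue, right), and bars are their means; the strains do not overlap for any of the 5 genes, and heights compare strains and not genes, since gene lengths are not accounted for.

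ACIB2EUKG768522, an acetate transporter by its UniRef name, had the largest change of the family. It was counted 1818 and 1832 times in the Dmxr1 libraries, against 17126 and 22581 times in the GS115 libraries. Scaled to library size, these were 67.7 and 65.0 CPM in Dmxr1 and 800.3 and 722 CPM in GS115. Both Dmxr1 libraries were far below both GS115 libraries, and the libraries of each strain lay close together. The means were 66.3 ± 1.91 CPM in Dmxr1 and 761 ± 55.6 CPM in GS115 (SD, n = 2 each). The log2 fold change was -3.52 (SE 0.21, adjusted p = 6.69e-08). It was the 2nd lowest log2 fold change of the 5425 genes tested, and it also ranked 2 by p. These are counts of bulk cultures, in which fewer cells carrying a transcript and less of it per cell cannot be told apart.

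ACIB2EUKG768521 is the neighbour of ACIB2EUKG768522 and has the same description and UniRef name. Its counts were 1960 and 2152 in Dmxr1 and 2479 and 3335 in GS115. Scaled to library size, these were 73.0 and 76.3 CPM in Dmxr1 and 116 and 107 CPM in GS115. The Dmxr1 libraries were again the lower ones, by a much smaller margin. The log2 fold change was -0.58 (SE 0.17, adjusted p = 0.0289), so it missed only the fold threshold. The adjusted p was 0.0928 without GS115 replicate 1, 0.233 without Dmxr1 replicate 1 and 0.100 without Dmxr1 replicate 2, and was 0.0165 without GS115 replicate 2.

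The pair can be compared inside each library, where scaling plays no part. The log2 ratio of ACIB2EUKG768522 counts to ACIB2EUKG768521 counts was -0.11 and -0.23 in Dmxr1, against 2.79 and 2.76 in GS115. This ratio, which is not corrected for gene length, was close to 0 in both Dmxr1 libraries and far higher in both GS115 libraries. The difference between the strains was -2.94 on the log2 scale, beside an SD of 0.088 in Dmxr1 and 0.021 in GS115 (n = 2 each). An exact two-sided permutation test gave p = 0.333, which is the smallest that 2 against 2 libraries allow. How the counting treated strand and multiply aligned reads is not stated in the sources used here. Any reads shared by these neighbours, which are alike in annotation, cannot be assigned with certainty. Whether their sequences are alike was not tested.

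ACIB2EUKG770042, the member on chromosome 2, was the second that was downregulated. It was counted 10545 and 7130 times in Dmxr1 and 21315 and 30448 times in GS115. Its levels were 393 and 253 CPM in Dmxr1, against 996 and 973 CPM in GS115. The Dmxr1 libraries differed from each other by 1.55-fold, the widest gap between replicates in the family, yet both lay below the GS115 pair. The means were 323 ± 98.8 CPM in Dmxr1 and 985 ± 16.2 CPM in GS115 (SD, n = 2 each). The log2 fold change was -1.61 (SE 0.23, adjusted p = 0.000458). It ranked 25th from the lowest of all genes tested. Leaving out Dmxr1 replicate 1 gave -1.96 and leaving out Dmxr1 replicate 2 gave -1.33, and the gene was called lower in both cases.

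ACIB2EUKG768246 carries the ammonia starvation signal description together with the acetate transporter name, and it was upregulated. Its counts were 66630 and 76694 in Dmxr1 and 22302 and 33930 in GS115, which are 2480.4 and 2720.2 CPM in Dmxr1 and 1042 and 1084 CPM in GS115. Both Dmxr1 libraries stood above both GS115 libraries, and within each strain the libraries differed by no more than 1.10-fold. The means were 2600.3 ± 169.6 CPM in Dmxr1 and 1063 ± 29.9 CPM in GS115 (SD, n = 2 each). The log2 fold change was 1.29 (SE 0.22, adjusted p = 0.00152), the 17th highest of all genes tested. ACIB2EUKG768246 and ACIB2EUKG770042, which share the K07034 entry and the starvation signal description, therefore went in opposite directions. Their within-library log2 ratio, ACIB2EUKG770042 over ACIB2EUKG768246, was -2.66 and -3.43 in Dmxr1 and -0.07 and -0.16 in GS115.

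ACIB2EUKG768479, another acetate transporter by name, was upregulated to nearly the same extent. It was counted 30209 and 27099 times in Dmxr1 and 8464 and 14885 times in GS115. These were 1125 and 961 CPM in Dmxr1 and 396 and 476 CPM in GS115, again without overlap. The means were 1043 ± 116 CPM in Dmxr1 and 436 ± 56.7 CPM in GS115 (SD, n = 2 each). The log2 fold change was 1.26 (SE 0.21, adjusted p = 0.00145). It ranked 18th from the highest, next to that of ACIB2EUKG768246.

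The ratio between the 2 upregulated members did not separate the strains. The log2 ratio of ACIB2EUKG768246 to ACIB2EUKG768479 was 1.14 and 1.501 in Dmxr1 and 1.40 and 1.19 in GS115. The libraries overlapped, and the means differed by 0.028 on the log2 scale (exact permutation p = 1.0). This was the only one of the 10 ratios between members whose libraries overlapped between the strains, and in the other 9 they did not. Each of those 9 had an exact permutation p of 0.333, the smallest the design allows. The 10 ratios share members and are not independent, and the share of other gene pairs without overlap was not computed. The spread between replicates of a strain was small beside the changes of the called members. The median log2 ratio between replicates, in size, was 0.13 over the members in Dmxr1 and 0.12 in GS115, against 0.17 and 0.20 over all genes. The test asks whether a change differs from 0. Tested against the fold threshold itself, only ACIB2EUKG768522 passed (adjusted p = 6.74e-07), whereas ACIB2EUKG770042 (adjusted p = 0.306), ACIB2EUKG768246 and ACIB2EUKG768479 (adjusted p = 1.0 each) did not.

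**Figure D2:**
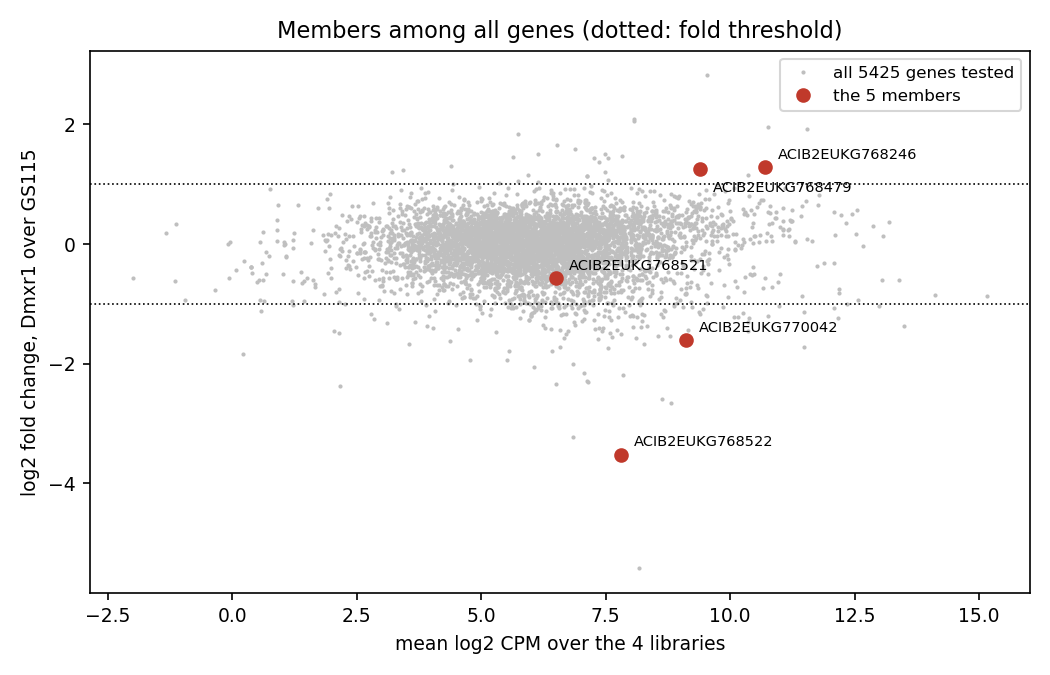
Log2 fold change of Dmxr1 over GS115 against the mean log2 CPM over the 4 libraries, for all 5425 genes tested (grey) and the 5 family members (red). Dotted lines mark log2 fold changes of -1 and 1; ACIB2EUKG768522 at -3.52 lies near the lower edge of all genes, and the members stand on both sides of 0.

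As a sum, the family differed less between the strains than its called members did. The 5 genes together had 4138 and 4076 CPM in Dmxr1, against 3350.0 and 3362 CPM in GS115. The means were 4107 ± 44.3 CPM in Dmxr1 and 3356 ± 8.37 CPM in GS115 (SD, n = 2 each), a ratio of 1.22. The strains did not overlap. The difference of 751 CPM had an exact two-sided permutation p of 0.333, the smallest the design allows. The sum leans on the members with the most counts, and it is not corrected for gene length.

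The make-up of the summed counts differed between the strains. ACIB2EUKG768246 held 59.9% and 66.7% of the family counts in Dmxr1, against 31.1% and 32.3% in GS115. ACIB2EUKG768479 held 27.2% and 23.6% in Dmxr1 and 11.8% and 14.2% in GS115. The upregulated pair thus held larger shares in both Dmxr1 libraries than in either GS115 library. ACIB2EUKG768522 held 1.64% and 1.59% in Dmxr1, against 23.9% and 21.5% in GS115. ACIB2EUKG770042 held 9.49% and 6.21% in Dmxr1 and 29.7% and 28.9% in GS115. ACIB2EUKG768521 had a small share in every library, at 1.76% and 1.87% in Dmxr1 and 3.46% and 3.17% in GS115.

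**Figure D3:**
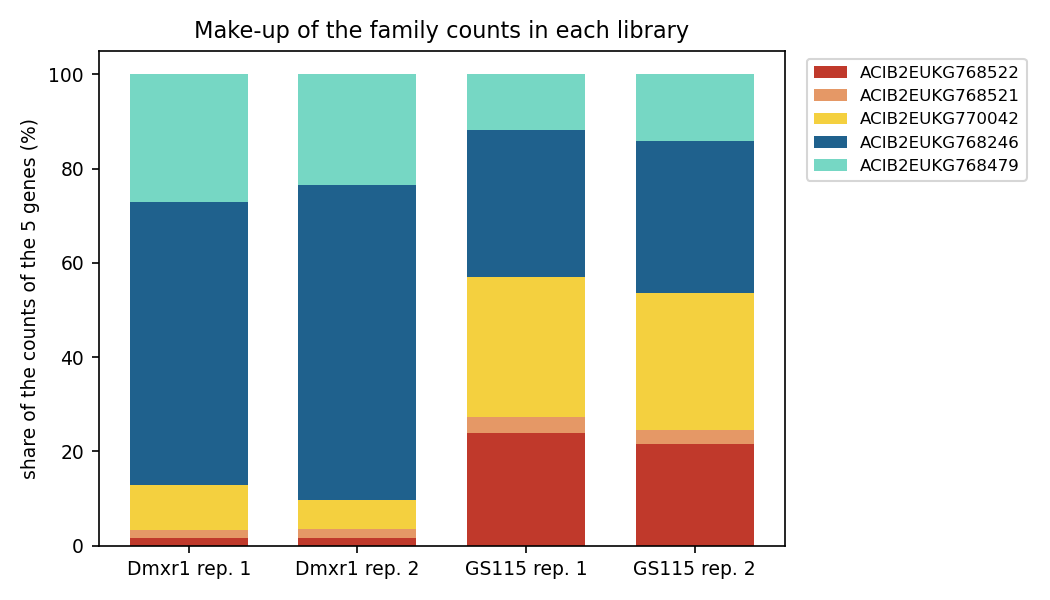
Share of the summed counts of the 5 genes held by each gene (%), stacked to the total of each library, with the 2 Dmxr1 libraries left and the 2 GS115 libraries right. ACIB2EUKG768246 fills 59.9% and 66.7% of the Dmxr1 bars and 31.1% and 32.3% of the GS115 bars; shares are not corrected for gene length.

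The genes beside the members were read in locus tag order, with 3 rows on each side of each member. These were 24 rows apart from the members, all tested. Of them 3 were called lower (12.5%, beside the 3.26% of all genes) and 0 higher (0.535% of all genes). DESeq2 called the same numbers, beside 3.13% of all genes lower and 0.516% higher. At an unadjusted p under 0.05 in edgeR's test, 7 rows were lower and 1 was higher, where 18.5% of all genes were lower and 13.5% higher.

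Called rows lay on both sides of ACIB2EUKG770042. ACIB2EUKG770041, described as a VanZ-like protein, had 5.58 and 7.55 CPM in Dmxr1 and 21.6 and 20.3 CPM in GS115 (log2 fold change -1.67, SE 0.22, adjusted p = 0.000199). ACIB2EUKG770043 had 39.9 and 57.0 CPM in Dmxr1 and 146 and 111 CPM in GS115 (log2 fold change -1.41, SE 0.20, adjusted p = 0.000518). The table describes that row as the amino acid permease AGP1, while its UniRef name is an acetate transporter required for normal sporulation. It is the 1 row outside the family with an acetate transporter UniRef name, and these annotations disagree. Hence 3 consecutive rows, with ACIB2EUKG770042 in the middle, were downregulated, and the rows beyond them, ACIB2EUKG770040 (-0.04) and ACIB2EUKG770044 (0.29), were not called.

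Next to ACIB2EUKG768522 the pattern was different. ACIB2EUKG768523, an acyl-CoA:ethanol O-acyltransferase by UniRef name, had 115 and 108 CPM in Dmxr1 and 180.5 and 187 CPM in GS115, without overlap. Its log2 fold change of -0.72 (SE 0.17, adjusted p = 0.0114) reached the adjusted p and not the fold threshold. On the other side of the pair ACIB2EUKG768520 lay at a log2 fold change of -0.24 (adjusted p = 0.426). The 6 rows around ACIB2EUKG768479 included none that was called, with log2 fold changes between -0.42 and 0.26.

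The rows around ACIB2EUKG768246 included 1 called lower, ACIB2EUKG768248, an actin patches distal protein. It had 119.6 and 243 CPM in Dmxr1 and 514 and 321 CPM in GS115 (log2 fold change -1.20, SE 0.29, adjusted p = 0.0120). The libraries of each strain lay far apart, and leaving out GS115 replicate 1 (-0.83) or Dmxr1 replicate 1 (-0.78, adjusted p = 0.145) ended the call. The telomere regulator RIF1 (ACIB2EUKG768244), which is 2 rows from ACIB2EUKG768246, stood at 0.86 on the log2 scale (adjusted p = 0.00361) and did not reach the fold threshold.

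**Figure D4:**
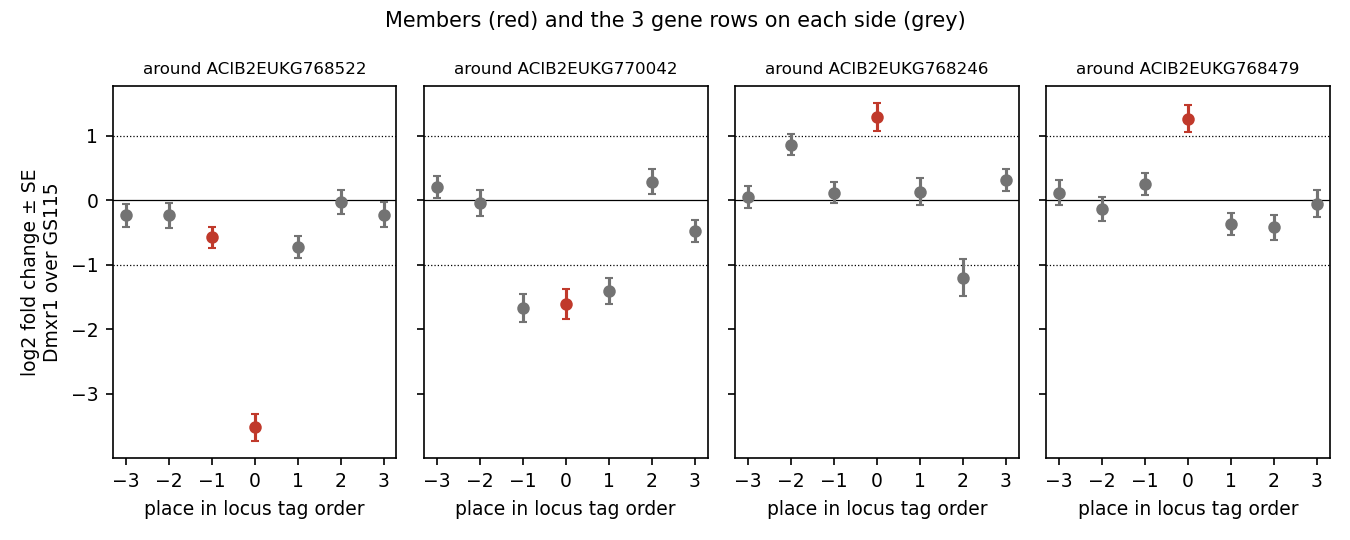
Log2 fold change of Dmxr1 over GS115 (points, with SE as bars) for family members (red) and the rows within 3 places of them in locus tag order (grey); ACIB2EUKG768521 is the red point left of ACIB2EUKG768522, and dotted lines mark -1 and 1. The rows on both sides of ACIB2EUKG770042 lie at -1.67 and -1.41, beside its own -1.61.

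For each member the 3 genes with the closest profile were sought among 5178 genes with a mean of at least 10 CPM, as the smallest Euclidean distance between log2 CPM values centred over the 4 libraries. With 4 libraries in 2 strains this likeness describes the size of the change and the order of the replicates, and it carries no test. Closest to ACIB2EUKG768522 was a peroxisomal pyrophosphatase of coenzyme A (ACIB2EUKG771395, distance 0.45, log2 fold change -3.23). The YLL054C homologue ACIB2EUKG771115 (0.91) and the acyl-CoA oxidase ACIB2EUKG769134 (0.95), which opens peroxisomal beta-oxidation, came after it. Closest to ACIB2EUKG770042 was the peroxisomal 3-ketoacyl-CoA thiolase ACIB2EUKG769676 (distance 0.24), the last enzyme of that pathway. It was followed by DNA topoisomerase III (ACIB2EUKG768336, 0.28) and acyl-CoA thioesterase 9 (ACIB2EUKG769984, 0.33).

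Isocitrate lyase was among the 3 closest to both upregulated members. This enzyme (ACIB2EUKG768919), which splits isocitrate in the glyoxylate cycle, was the closest to ACIB2EUKG768246 (distance 0.16) and the third closest to ACIB2EUKG768479 (0.26). It had 1964 and 1968 CPM in Dmxr1 and 874 and 888 CPM in GS115. The copper amine oxidase ACIB2EUKG769032 lay at 0.20 from ACIB2EUKG768246, and ACIB2EUKG768479 at 0.30. ACIB2EUKG768246 was not among the 3 closest to ACIB2EUKG768479. Closer to ACIB2EUKG768479 than isocitrate lyase were the LYR motif protein ACIB2EUKG771861 (0.16) and ACIB2EUKG772669 (0.26), annotated as an immunoglobulin A1 protease. The level of ACIB2EUKG771861 was low, at 15.2 and 12.8 CPM in Dmxr1 and 5.05 and 7.06 CPM in GS115. The call of ACIB2EUKG771861 (log2 fold change 1.20) was lost without GS115 replicate 1, at 0.99. ACIB2EUKG768521 was nearest to 3 uncalled rows, BAS1 (ACIB2EUKG768666, 0.038), ACIB2EUKG768001 (0.039) and ACIB2EUKG768772 (0.059). Between ACIB2EUKG768521 and its neighbour ACIB2EUKG768522 the distance was 2.94.

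Genes annotated with the handling of ammonium, acetate and other carboxylates were read in 6 lists of 49 genes, of which 2 were called lower and 2 higher. Over all genes, 3.26% were called lower and 0.535% higher, 18.5% were lower and 13.5% higher at an unadjusted p under 0.05, and the median log2 fold change was 0.0041. The lists are small, and their counts and medians are given as a description beside these values. Of 3 ammonium uptake transporters, which carry ammonium into the cell, 1 was called higher (0.535% of all genes) and 0 lower (median log2 fold change 0.88). MEP2 (ACIB2EUKG768979) had 685 and 441 CPM in Dmxr1, against 141 and 124 CPM in GS115 (log2 fold change 2.09, SE 0.23, adjusted p = 4.21e-05). MEP3 (ACIB2EUKG769811), named after its value was seen, had 448 and 373 CPM in Dmxr1 and 272 and 174 CPM in GS115 without overlap (log2 fold change 0.88, adjusted p = 0.0168). It was called without GS115 replicate 1 (1.24) and without Dmxr1 replicate 2 (1.01), and not with all libraries. The remaining gene of the list, ACIB2EUKG769148, had 41.4 and 31.8 CPM in Dmxr1 and 46.8 and 39.2 CPM in GS115. Its libraries overlapped between the strains, and its change had the other sign (log2 fold change -0.23, adjusted p = 0.412). At an unadjusted p under 0.05 the list had 2 higher (13.5% of all genes) and 0 lower, and DESeq2 called the same numbers as edgeR.

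Of 4 genes of ammonium assimilation, by which ammonium becomes glutamate and glutamine or is released from glutamate, edgeR and DESeq2 called 0 in either direction (median 0.35). At an unadjusted p under 0.05 edgeR had 1 lower (18.5% of all genes) and 2 higher (13.5%). The NAD-dependent glutamate dehydrogenase ACIB2EUKG770416, which releases ammonia from glutamate, had 420.3 and 401 CPM in Dmxr1 and 702 and 766 CPM in GS115 (log2 fold change -0.84, adjusted p = 0.0100). The NADH-dependent glutamate synthase ACIB2EUKG770906 had 1914 and 1605 CPM in Dmxr1 and 899 and 1106 CPM in GS115 (0.81, adjusted p = 0.0217). Both had strains without overlap and missed only the fold threshold.

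Among 17 enzymes annotated with deamination, amine oxidation or other release of ammonia, 1 was called higher (0.535% of all genes) and 0 lower by edgeR and DESeq2 (median 0.28). At edgeR's unadjusted p under 0.05, 5 were higher (13.5% of all genes) and 1 lower (18.5%). The called gene was the copper amine oxidase ACIB2EUKG769032, with 28.7 and 37.3 CPM in Dmxr1 and 13.7 and 13.0 CPM in GS115 (log2 fold change 1.30, SE 0.20, adjusted p = 0.000705). Others were called only when a library was left out. The serine deaminase ACIB2EUKG769828 (log2 fold change -0.86) was called lower without GS115 replicate 2 (-1.15) and without Dmxr1 replicate 2 (-1.16), and the amine oxidase ACIB2EUKG771016 (0.85) was called higher without GS115 replicate 2 (1.09).

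Of 9 genes matched by annotation to acetate formation or activation, 2 were called lower (3.26% of all genes) and 0 higher by edgeR and DESeq2 (median 0.0078). At edgeR's unadjusted p under 0.05, 3 were lower (18.5% of all genes) and 2 higher (13.5%). Which substrate each listed aldehyde dehydrogenase uses was not tested here. Both called genes are annotated as aldehyde dehydrogenases, a family that includes enzymes making acetate from acetaldehyde. Neither row carries a gene symbol, and they were named by the UniProt entry that the study lists for each gene. *ALD6-1* (ACIB2EUKG773017) had 39.4 and 48.9 CPM in Dmxr1 and 1824 and 1953 CPM in GS115 (log2 fold change -5.42), the only log2 fold change of all genes below that of ACIB2EUKG768522. *ALD4* (ACIB2EUKG770202) had 1374 and 1788 CPM in Dmxr1 and 5547 and 4899 CPM in GS115 (log2 fold change -1.72, adjusted p = 0.000402).

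Of 11 other carboxylate transporters, edgeR and DESeq2 called 0, and 3 were higher (13.5% of all genes) and 0 lower at edgeR's unadjusted p under 0.05 (median 0.32). The monocarboxylate transporter ACIB2EUKG768694 had 162 and 147 CPM in Dmxr1 and 89.4 and 85.6 CPM in GS115 (log2 fold change 0.82, adjusted p = 0.00508). The mitochondrial succinate/fumarate carrier ACIB2EUKG772306 (0.94, adjusted p = 0.00753) was called higher without Dmxr1 replicate 2, at 1.05. Of 5 nitrogen regulators edgeR and DESeq2 also called 0, with 1 lower (18.5% of all genes) and 0 higher at edgeR's unadjusted p under 0.05 (median -0.07). The GATA factor ACIB2EUKG772769 had 113 and 139.9 CPM in Dmxr1 and 253 and 191 CPM in GS115 (-0.81, adjusted p = 0.0127) and was called lower without GS115 replicate 2, at -1.002. The *URE2*-like repressor ACIB2EUKG770720, which in *S. cerevisiae* holds back the activator Gln3, lay at 0.27 (adjusted p = 0.308).

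**Figure D5:**
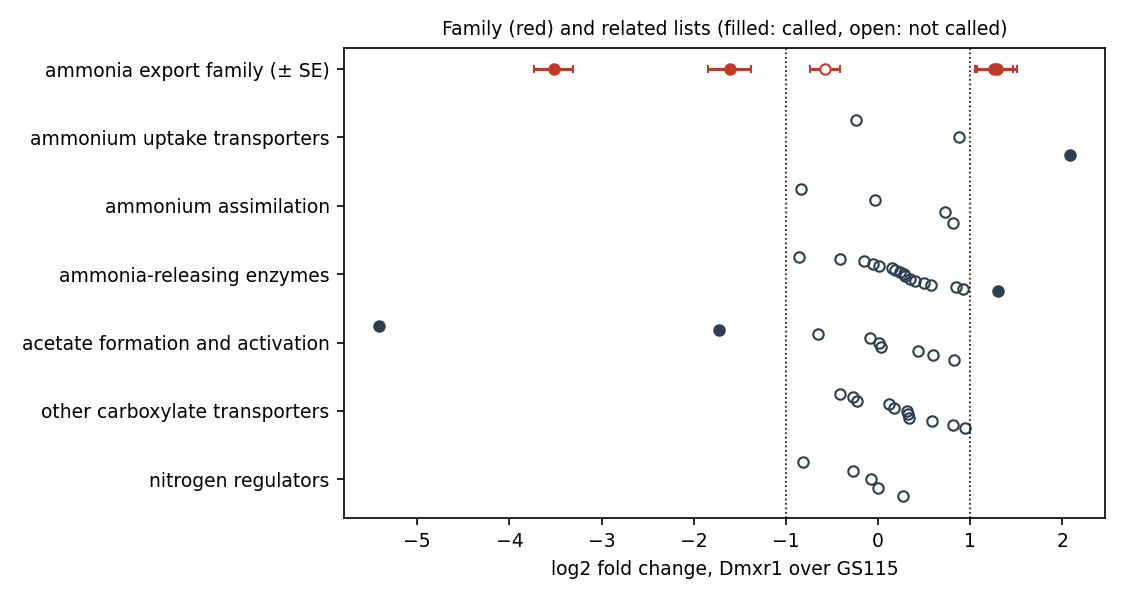
Log2 fold change of Dmxr1 over GS115 for the 5 family members (red, with SE as bars) and for the genes of 6 related lists (dark blue, 1 point a gene, spread vertically for legibility). Filled points were called and open points were not, and dotted lines mark -1 and 1; 4 of 5 members and 4 of the 49 other genes are filled.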

How the data were processed

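Per the labels, ribosomal RNA was depleted with a kit made for bacteria. Per the submitters' processing notes, bcl2fastq 2.19.0.316, fastp 0.19.6, Bowtie2 and featureCounts 1.6.4 were used, and the study's methods name the *K. phaffii* genome. The authors deposited raw counts of reads per gene, not normalized. Of the 5427 rows, 162 had no gene identifier, and per-sample columns without a sample numbered 0. Gene lengths, strands, coordinates and sequences were not used here.

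Genes with at least 5 counts in 2 libraries were tested with edgeR 4.0.16 (R 4.3.3): quasi-likelihood test, TMM scaling, Benjamini-Hochberg adjustment over all genes tested, with calls at an adjusted p up to 0.05 and a log2 fold change from 1 in size. Adjusted p-values come from this test unless another is named. Each SE was computed as the absolute log2 fold change over the square root of F. CPM used TMM-adjusted library sizes. DESeq2 1.42.0 was an alternative. Profiles used log2 CPM with a prior count of 2. Replicates differed by more than sampling noise (chi-square per degree of freedom 93.2 in Dmxr1 and 173 in GS115). The script was tested on simulated data. Duplicate cultures are described. The edgeR p-values rest on the spread between 2 libraries a strain, with estimates of spread shared in part across genes. With a library left out, that spread came from the pair of the other strain alone. Counting error was at most 2.35% for any member in any library.

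The members and lists were chosen with earlier results of these data known. The lists were matched by annotation text, and 10 of 59 matched rows were removed because their annotation names another function. Named genes are the members, *MXR1*, rows within 3 locus tags of a member, each member's 3 closest profiles, and from each list the called genes or, with none called, the 2 with the smallest p. List genes whose call changed with a library left out were added after their values were seen, as was ACIB2EUKG769148.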

Additional observations from a re-analysis of the deposited data

How the results depend on the processing

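With RLE or upper-quartile scaling, library size alone, no filter on low counts, a filter of 50 counts, DESeq2 or a replicate block, the same numbers of members were called, 2 lower and 2 higher. The replicate block gave 151 lower and 28 higher genes in all. Deviations of same-numbered libraries correlated at -0.144, so the numbers were not taken to pair the samples, and a crossed pairing, added after seeing the data, gave 169 and 29. With the replicate block the adjusted p of ACIB2EUKG768521 was 0.0775 and that of ACIB2EUKG768248 was 0.0556, and with library size alone that of ACIB2EUKG768521 was 0.107. With libraries left out in turn the genes called lower ranged between 94 and 290 and those called higher between 23 and 56. The log2 fold change of ACIB2EUKG768522 ranged between -3.59 and -3.45, that of ACIB2EUKG770042 between -1.96 and -1.33, that of ACIB2EUKG768246 between 1.22 and 1.36, and that of ACIB2EUKG768479 between 1.13 and 1.40. Against the fold threshold itself, a test added after seeing the data, ACIB2EUKG770042 (log2 fold change -1.61), ACIB2EUKG768246 (1.29) and ACIB2EUKG768479 (1.26) were not called. The difference in summed CPM was 756 with RLE scaling and 957 with library size alone. With no matched row removed, the list of other carboxylate transporters had 1 row called lower. That row had been removed because its annotation names another function. Levels cannot be compared between genes, since lengths were not used, and with 2 libraries a strain no exact permutation p can go below 0.333.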
